A study of Mus musculus with 6 samples.

Results

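The 40 genes described here act in the repair of DNA double-strand breaks and in the checkpoint that halts the cell cycle while a break is repaired. They were listed by name, by a rule that uses no measured value but with earlier results of these data known, out of 27179 genes in the count table. A double-strand break is repaired either by homologous recombination, which copies the intact sister DNA after replication, or by non-homologous end joining, which ligates the ends directly and is the main route in resting cells such as hematopoietic stem cells (HSCs). The break is sensed by the MRN complex and the kinase ATM, and stretches of single-stranded DNA are sensed by ATR, after which the kinases CHEK1 and CHEK2 carry the signal to the cell cycle. Several of these genes are also needed to keep a working HSC pool, and inherited loss of the Fanconi anemia genes causes bone marrow failure.

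RNA-Seq was performed on long-term HSCs (LT-HSCs), sorted as CD150+CD48-LSK cells from bone marrow of C57BL/6 mice, with 3 libraries from WT mice and 3 from Foxm1 heterozygous (Foxm1 HET) mice. Both groups were young mice of the same age, per the study. Foxm1 encodes a forkhead transcription factor that drives genes of cell division, and the study asked which genes differ in HSCs that carry 1 inactive copy. The genotype labels name the heterozygous state, whereas the titles of these libraries name a floxed allele with no Cre. The Cre driver of the sequenced mice is not given in the sources used here. For other experiments the study's methods use Foxm1 HET for Tie2-Cre Foxm1fl/+ mice and WT for Foxm1fl/+ mice without Cre. No treatment is named for either group, and the study's methods speak of 3 pairs of mice and of nanogram amounts of RNA. Expression is given as reads counted per gene, as reads scaled by the library total (CPM), or as reads scaled by gene length and library total (TPM), the one scale used to compare genes with each other.

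The targeted gene was read first. Foxm1 had 1182, 2615 and 2942 reads in WT libraries 1 to 3 and 659, 5 and 742 reads in Foxm1 HET libraries 1 to 3. The genotypes did not overlap, but the difference was not called (log2 fold change -3.30, SE 2.33, adjusted p = 0.961). Library totals ran from 14573002 to 25798509 reads. The number of genes with at least 10 reads ran from 4467 in Foxm1 HET library 2, which was also the smallest library, to 9894 in Foxm1 HET library 1. Of 10 LT-HSC markers, 6 to 10 reached 10 reads per library, with a summed level of 1837 to 4840 CPM in WT and 2282 to 4548 CPM in Foxm1 HET libraries. Kit and Hlf were high in every library, but Slamf1, which encodes the sorting marker CD150, had 2, 1572 and 0 reads in WT against 8, 0 and 543 reads in Foxm1 HET libraries. Ly6a, which encodes the sorting marker Sca-1, had 125, 4 and 2 reads in WT against 2261, 2 and 1597 in Foxm1 HET libraries. Cd48, which the sort excludes, had 221, 6608 and 1 reads in WT against 1285, 5 and 22 in Foxm1 HET libraries. Flt3, like Cd48 a multipotent progenitor marker, had 1480, 1580 and 336 reads in WT against 1540, 6 and 12648 in Foxm1 HET libraries. Of 8 neutrophil markers, 6 to 8 reached 10 reads, at 2270 to 7985 CPM in WT and 1307 to 4628 CPM in Foxm1 HET libraries. Of 7 erythroid markers, 2 to 5 reached 10 reads, at 74.3 to 119 CPM in WT and 15.9 to 36.4 CPM in Foxm1 HET libraries, with Hba-a1 at 0 reads throughout. B cell markers (6 genes, Cd79a, Ms4a1 and Ebf1 at 0 reads throughout) summed to 12.6 to 200.2 CPM in WT and 0 to 6.68 CPM in Foxm1 HET libraries. Summed levels were 0.299 to 124 CPM in WT and 10.3 to 124 CPM in Foxm1 HET libraries for 6 T cell markers (Cd3g and Cd2 at 0 reads throughout), 16.2 to 179.9 CPM and 4.61 to 178 CPM for 6 macrophage markers (C1qa and C1qb at 0 reads throughout), and 15.4 to 381 CPM and 4.60 to 236 CPM for 6 megakaryocyte markers. The part of these other cells in the values below was not tested, and in bulk samples fewer cells of a type and less RNA per cell cannot be told apart.

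A few of the members were also measured by RT-PCR in the study, and their primers show which exons that assay joins. The primers are printed 5′ to 3′ and capitals mark bases that lie in the downstream of the pair of exons a primer spans, on the GENCODE M21 transcripts of GRCm38.
Xrcc5 forward: atggcgtggtccggtaataag
Xrcc5 reverse: Cctgtcgttggacaaacatagtc
Nbn forward: gatcagtcaatcagtcgaaacca
Nbn reverse: CCAAGGGCTCGTATTCTACTctg
Xrcc6 forward: atgtcagagtgggagtcctac
Xrcc6 reverse: tcgctgcttatgatcttactggt
The Xrcc5 pair lies in coding exons 1 to 3 on chromosome 1 (72307547 to 72312408, plus strand) and bounds a product of 136 bases. The Nbn pair lies in coding exons 2 to 4 on chromosome 4 (15962385 to 15964266, plus strand) and bounds 229 bases. The Xrcc6 pair lies in coding exons 2 and 4 on chromosome 15 (82017123 to 82022485, plus strand), bounds 230 bases and matched 6 of 12 annotated transcripts. The read counts given for these genes cover all exons and not these products alone. Primers for Nhej1 are also listed by the study, but 0 of 2 annotated transcripts held both in full, and they are not printed.

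Promoter sequences from RefSeq (GRCm38.p6), 250 bases before to 50 bases after a gene's start, were found for 32 of the 40 members. The letters TTCCCGC or TTGGCGC, a form of the site bound by the E2F factors of S phase, were present on either strand in 16 of the 32 (50%), against 15% of the 6500 genes tested for expression with a promoter and 7.79% of all 27025 genes with one. The letters CCAAT, the box bound by NF-Y, were present in 18 members (56.2%) against 41.8% of the genes tested, and in no member did they overlap an E2F match. The forkhead letters TGTTTA were found in 1 member, Brca2 (3.12% against 10.4%), and the letters TTTGAA of the cell cycle element CHR in 3 members, Bard1, Rad51b and Rnf8 (9.38% against 14.4%). The median GC content was 59.2% for members and 61.3% for the genes tested. The bases before the start are printed for 3 members to show these letters in place, with in capitals the E2F matches that lie wholly before the start and the forkhead matches of Brca2: Rad51c at chr11:87404955-87405204, minus strand, Fancg at chr4:43010302-43010551, minus strand, and Brca2 at chr5:150522371-150522620, plus strand.
Rad51c: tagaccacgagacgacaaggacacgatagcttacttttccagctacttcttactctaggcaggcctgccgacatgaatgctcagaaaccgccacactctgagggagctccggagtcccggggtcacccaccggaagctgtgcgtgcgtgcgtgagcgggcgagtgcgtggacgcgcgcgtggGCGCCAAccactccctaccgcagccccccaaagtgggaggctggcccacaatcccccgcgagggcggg
Fancg: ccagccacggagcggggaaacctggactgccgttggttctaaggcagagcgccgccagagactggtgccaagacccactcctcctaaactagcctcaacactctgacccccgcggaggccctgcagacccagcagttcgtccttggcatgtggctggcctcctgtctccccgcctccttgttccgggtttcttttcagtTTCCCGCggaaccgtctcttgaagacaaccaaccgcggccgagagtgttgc
Brca2: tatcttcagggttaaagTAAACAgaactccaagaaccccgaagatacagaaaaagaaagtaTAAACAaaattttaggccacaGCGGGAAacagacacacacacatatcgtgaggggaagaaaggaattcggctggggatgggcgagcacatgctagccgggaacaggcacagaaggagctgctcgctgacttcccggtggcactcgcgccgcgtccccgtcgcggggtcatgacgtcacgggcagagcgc
The start used for Rad51c is the upstream of its RefSeq starts. A match of letters is a description of the sequence and does not show that a factor binds there, and no binding data were used here.

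Detection of the members varied strongly among libraries of 1 genotype. Of 40 members, 31, 17 and 19 reached 10 reads in WT libraries 1 to 3 and 35, 13 and 31 in Foxm1 HET libraries 1 to 3. The genotypes overlapped, and the order of the libraries was close to that of all genes, of which 56.7%, 49.4% and 43.1% of the 13845 genes with any read did so in WT against 71.5%, 32.3% and 68.1% in Foxm1 HET. Reads of all members together came to 1612, 1131 and 3265 CPM in WT against 1690, 2038 and 2012 CPM in Foxm1 HET, which also overlapped. Rad51b and Lig4 had 0 reads in every library, and Nhej1 had 6 reads in Foxm1 HET library 1 and 0 in the others, so that expression of these 3 was not detectable at this depth. A further 7 members, Rad50, Atm, Mdc1, Rnf168, Prkdc, Fancd2 and Wrn, reached 10 reads in all 6 libraries (18.2% of genes with any read did so). Among the other 30, 1 member reached 10 reads in 1 library, 5 in 2 libraries, 11 in 3, 5 in 4 and 8 in 5.

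**Figure D1:**
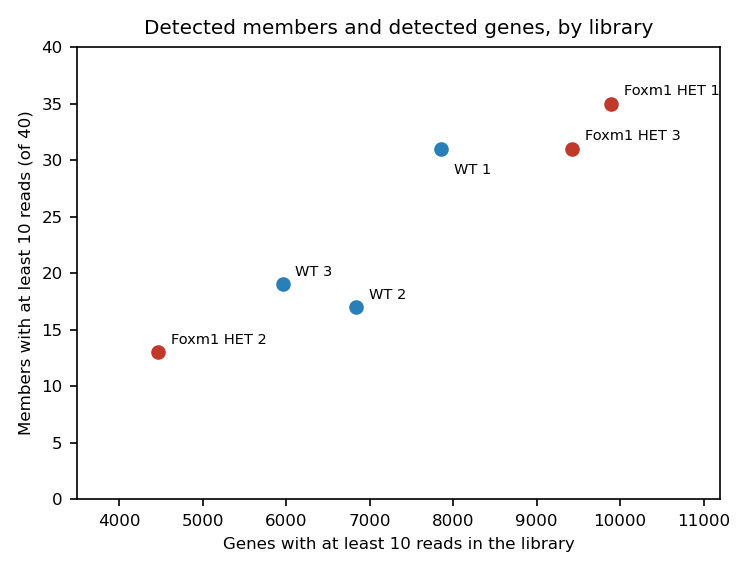
Members with at least 10 reads (of 40, vertical axis) against all genes with at least 10 reads (horizontal axis), 1 point per library, WT in blue and Foxm1 HET in red. Foxm1 HET library 2 holds 13 members and 4467 genes, Foxm1 HET library 1 holds 35 members and 9894 genes, and the WT libraries lie between.

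**Figure D2:**
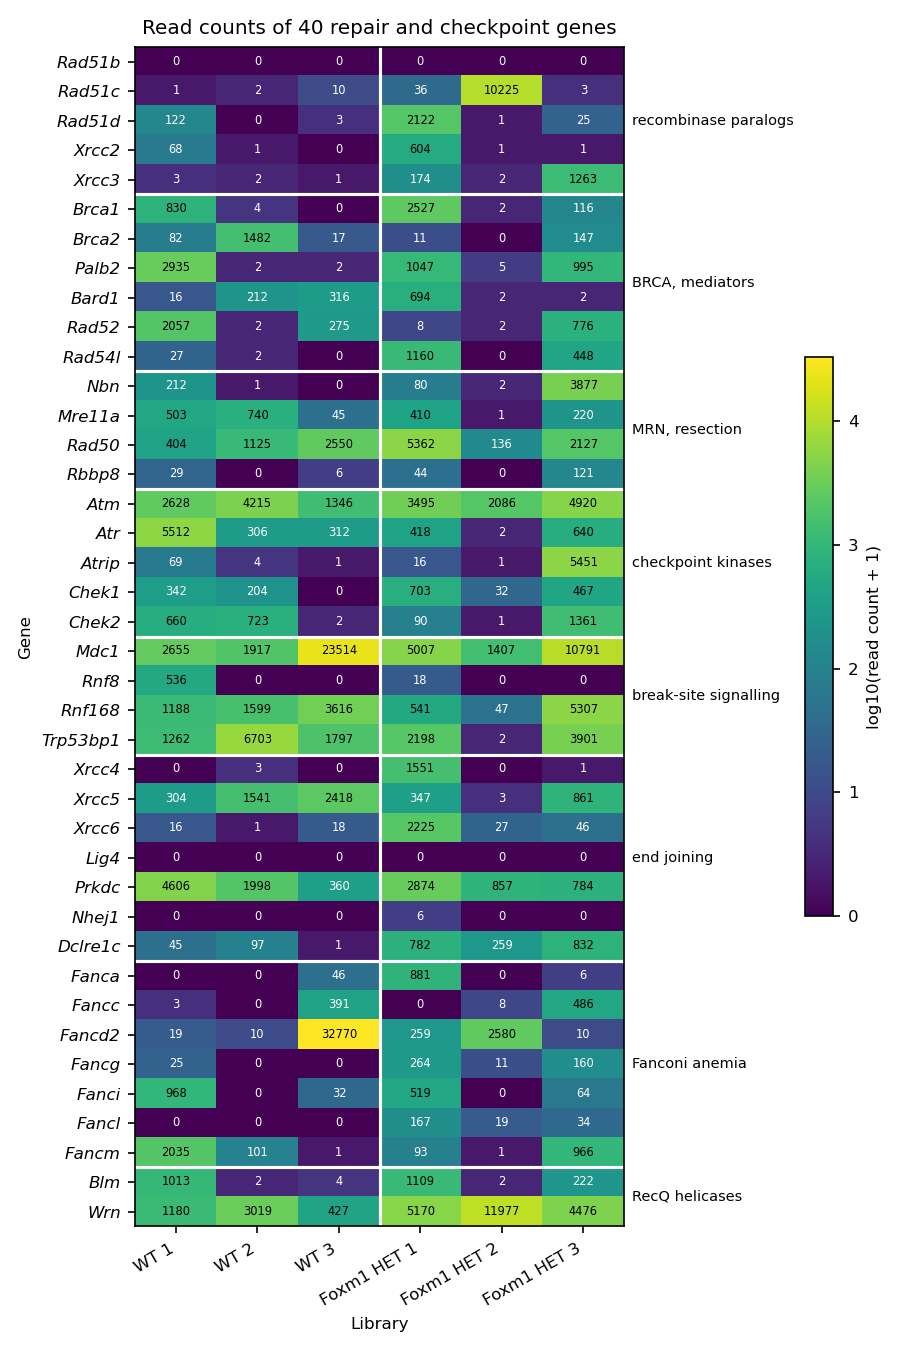
Read counts of the 40 members (rows, by role) in the 6 libraries (columns), with the count printed in each cell and colour on a log10(read count + 1) scale. Most rows hold both cells near 0 and cells with many reads within 1 genotype, and Atm is the most even row, at 1346 to 4920 reads.

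Between genotypes, 32 of the 40 members had enough reads for the edgeR test, and 1 of them, Rad51c, was called (higher in Foxm1 HET libraries, adjusted p under 0.05), where 0.329% of all 8195 genes tested were called in either direction. The 8 members left out were Rad51b, Xrcc2, Xrcc3, Rnf8, Xrcc4, Lig4, Nhej1 and Fanca. At an unadjusted p under 0.05 there were 3 members, Rad51c, Fancl and Wrn, all higher in Foxm1 HET libraries, where 6.03% of all genes tested passed. Fancl, at 0 reads in each WT library, passed the filter on low counts only through the Foxm1 HET libraries, so its place in this count and the next follows in part from the filter. The 3 libraries of 1 genotype lay apart from the 3 of the other for 3 members, Fancl, Dclre1c and Fancg, all higher in Foxm1 HET libraries, where 8.68% of all genes tested did not overlap. The last 2 of these counts stand near the background of all genes, and the first is a single gene. Of the 32 tested, 14 had a fitted log2 fold change above 0 and 18 below, with a median of -0.45 against -0.26 for all genes tested, of which 45.4% lay above 0. The sign of the members' median turned with library-size scaling (0.13), no filter (0.22), limma-voom (0.45) and the normalized table (0.17). Setting Fancl, which had 0 reads in WT, at its lower bound could not move the members' median of -0.45, since that bound also lies above it. The standard errors of the members ran from 1.56 to 3.83 on the log2 scale, with a median of 2.82 (2.59 over all genes). These p-values rest on a spread between libraries of a genotype that edgeR estimates in part from all genes tested. A small standard error thus need not mean a small spread of that gene. For Fancd2 the SE was 1.58, while its log2 CPM had an SD of 6.66 in WT libraries. With 3 libraries against 3, the smallest two-sided p of the exact permutation test used below for single genes is 0.1.

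**Figure D3:**
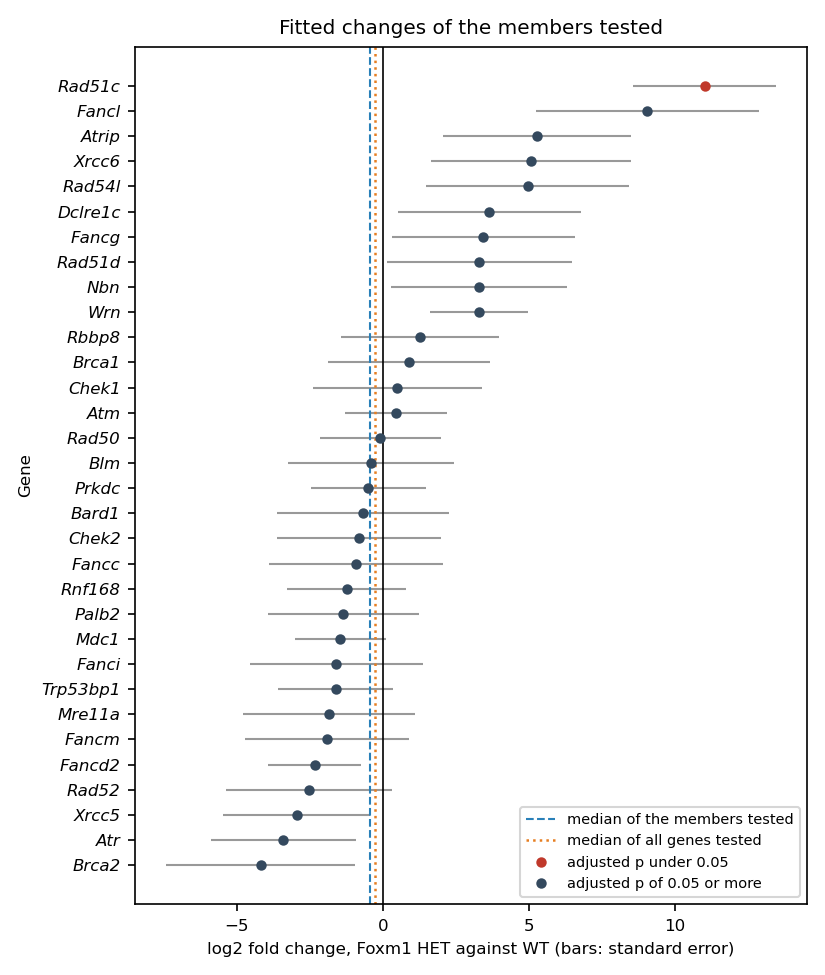
Fitted log2 fold change of Foxm1 HET against WT for the 32 members tested (points, bars are standard errors), with the member called in red. The dashed line is the median of the members (-0.45) and the dotted line that of all genes tested (-0.26), and most bars cross 0.

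The recombinase paralogs (Rad51b, Rad51c, Rad51d, Xrcc2 and Xrcc3) form small complexes that help to load and stabilise the recombinase on single-stranded DNA. Rad51c (gene 114714, chromosome 11, 87377607 to 87404495, minus strand, mm10) had 1, 2 and 10 reads in WT libraries 1 to 3 and 36, 10225 and 3 reads in Foxm1 HET libraries 1 to 3. The value of Foxm1 HET library 2 stood far above all others, while library 3 of the same genotype lay within the WT range. The log2 fold change was 11.02 (SE 2.46, adjusted p = 0.00684), the exact permutation p was 0.3 (two-sided, n = 3 and 3), and without Foxm1 HET library 2 the log2 fold change was 1.08 and not called, so that the call rests on that library. It was also lost without any 1 of the WT libraries, when the adjusted p was 0.207, 0.219 and 0.0553. Rad51d had 122, 0 and 3 reads in WT against 2122, 1 and 25 reads in Foxm1 HET libraries, also overlapping. Xrcc2 and Xrcc3 exceeded 10 reads in 2 libraries each, with 604 reads of Xrcc2 in Foxm1 HET library 1 and 1263 reads of Xrcc3 in Foxm1 HET library 3.

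Among BRCA1, BRCA2 and the other mediators of recombination, all 6 members were tested and none was called, with 2 fitted values above 0 and 4 below. Rad54l, a motor protein that remodels DNA during strand invasion, had the smallest p of the group. It had 27, 2 and 0 reads in WT libraries 1 to 3 and 1160, 0 and 448 reads in Foxm1 HET libraries 1 to 3 (log2 fold change 4.95, SE 3.49, adjusted p = 0.961). Foxm1 HET library 2 thus lay with the WT libraries, and the genotypes overlapped. Brca1, which directs a cut end toward recombination, had 830, 4 and 0 reads in WT against 2527, 2 and 116 in Foxm1 HET libraries. Brca2, which loads the recombinase, had 82, 1482 and 17 reads in WT against 11, 0 and 147 in Foxm1 HET libraries. Palb2, the link between BRCA1 and BRCA2, was at 2 to 2935 reads in WT and 5 to 1047 in Foxm1 HET libraries. Bard1, the partner of BRCA1, ran from 16 to 316 reads in WT and from 2 to 694 in Foxm1 HET libraries, and Rad52, which anneals single strands, from 2 to 2057 and from 2 to 776. In each of the 6 the genotypes overlapped after TMM scaling.

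The MRN complex of MRE11, RAD50 and NBN binds and tethers broken ends, and RBBP8 (CtIP) starts their resection. Nbn (gene 27354, chromosome 4, 15957967 to 15992589, plus strand) had 212, 1 and 0 reads in WT libraries 1 to 3 and 80, 2 and 3877 reads in Foxm1 HET libraries 1 to 3. Foxm1 HET library 3 alone stood high, and the genotypes overlapped (log2 fold change 3.30, SE 3.02, adjusted p = 0.993), with a log2 fold change of -1.29 without that library. Rad50 was found in every library, at 404, 1125 and 2550 reads in WT against 5362, 136 and 2127 reads in Foxm1 HET libraries. The genotypes overlapped over nearly their whole range, at log2 CPM of 4.20 to 7.32 in WT and 4.40 to 7.14 in Foxm1 HET (log2 fold change -0.10, SE 2.07, adjusted p = 0.998), and the sign turned with library-size scaling (0.70). Mre11a had 503, 740 and 45 reads in WT against 410, 1 and 220 in Foxm1 HET libraries, and Rbbp8 reached at most 29 and 121 reads. None of the 4 was called.

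Of the kinases that sense breaks and halt the cycle, Atm was the member with the most even level. Its level was 23.8, 35.6 and 10.5 TPM in WT libraries 1 to 3 (23.3 ± 12.5, SD, n = 3) and 24.0, 26.3 and 38.0 TPM in Foxm1 HET libraries 1 to 3 (29.5 ± 7.52, SD, n = 3). The genotypes overlapped (log2 fold change 0.45, SE 1.76, adjusted p = 0.998), and the sign turned with limma-voom. Its highest and lowest CPM values were 3.05-fold apart, against a median of 28.6-fold over the 2516 genes with at least 10 reads in all libraries. Atm was singled out after its values were seen. Atrip, which brings the kinase ATR to single-stranded DNA, had 69, 4 and 1 reads in WT against 16, 1 and 5451 in Foxm1 HET libraries, with Foxm1 HET library 3 alone high (log2 fold change 5.28, SE 3.21, adjusted p = 0.938, and -1.83 without that library). Of the 50-base stretches of Atrip transcripts, 15.4% occur on either strand in transcripts of other genes, among them its neighbour Trex1. The exon bases counted for Atrip overlap no other gene, and whether counted reads were shared was not tested. Other members also had such stretches, and their share was 16.3% for Fancc, 14.5% for Rnf8 and 13.7% for Trp53bp1. It was 12.4% for Fanci, 12.3% for Rad54l and 11.4% for Fancl. Atr had 5512, 306 and 312 reads in WT against 418, 2 and 640 in Foxm1 HET libraries. Chek1, the effector of ATR, had 342, 204 and 0 reads in WT against 703, 32 and 467 in Foxm1 HET libraries, and Chek2, the effector of ATM, 660, 723 and 2 reads and 90, 1 and 1361 reads. None of the 5 was called, and in each the genotypes overlapped after TMM scaling, though Atr was lower in all Foxm1 HET libraries with RLE scaling.

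MDC1, RNF8, RNF168 and 53BP1 (encoded by Trp53bp1) mark and organise the chromatin around a break, and the last of these steers repair toward end joining. Mdc1 was found in every library, at 2655, 1917 and 23514 reads in WT libraries 1 to 3 and 5007, 1407 and 10791 reads in Foxm1 HET libraries 1 to 3. WT library 3 held the highest value, while after TMM scaling the other WT libraries (log2 CPM 6.91 and 6.41) lay below all Foxm1 HET libraries (7.04 to 8.01) (log2 fold change -1.47, SE 1.56, adjusted p = 0.998). Without WT library 3 the log2 fold change was 0.95, so that its sign rests on that library. Rnf168, a ubiquitin ligase, had 1188, 1599 and 3616 reads in WT against 541, 47 and 5307 in Foxm1 HET libraries, and the genotypes overlapped (log2 fold change -1.24, SE 2.04, adjusted p = 0.998). Trp53bp1 had 1262, 6703 and 1797 reads in WT against 2198, 2 and 3901 in Foxm1 HET libraries. Rnf8, the ligase upstream of RNF168, had 536 reads in WT library 1, 18 in Foxm1 HET library 1 and 0 in the other libraries, and was not tested.

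Non-homologous end joining uses the Ku proteins (Xrcc5 and Xrcc6) to hold the ends, the kinase DNA-PKcs (Prkdc), the nuclease Artemis (Dclre1c) and the ligase complex of Lig4, Xrcc4 and Nhej1. Of 7 members, 4 were tested and none was called, with 2 fitted values above 0 and 2 below. Dclre1c (gene 227525, chromosome 2, 3424131 to 3461113, plus strand) had 45, 97 and 1 reads in WT libraries 1 to 3 and 782, 259 and 832 reads in Foxm1 HET libraries 1 to 3. All 3 Foxm1 HET values lay above all WT values (log2 fold change 3.65, SE 3.12, adjusted p = 0.985, exact permutation p = 0.1, two-sided, n = 3 and 3), which is the smallest p this design allows. The log2 fold change stayed between 3.05 and 4.64 as each library was left out. Of its exon bases, 3.38% overlap Suv39h2 on the opposite strand, which had 0, 0 and 195 reads in WT against 129, 1 and 293 in Foxm1 HET libraries.

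The Ku subunits, which act as a pair, differed in the sign of their fitted values. Xrcc5 (gene 22596), the larger subunit, had 304, 1541 and 2418 reads in WT libraries 1 to 3 and 347, 3 and 861 reads in Foxm1 HET libraries 1 to 3, so that the genotypes overlapped (log2 fold change -2.95, SE 2.51, adjusted p = 0.985). Xrcc6 (gene 14375), the smaller subunit, had 16, 1 and 18 reads in WT against 2225, 27 and 46 in Foxm1 HET libraries. On the read scale every Foxm1 HET value lay above every WT value, whereas after TMM scaling Foxm1 HET library 3 lay just below WT library 3 (log2 fold change 5.06, SE 3.42, adjusted p = 0.949, exact permutation p = 0.2, two-sided, n = 3 and 3). The difference between the changes of the subunits was not tested. Prkdc was found in every library, at 4606, 1998 and 360 reads in WT against 2874, 857 and 784 in Foxm1 HET libraries, and the genotypes overlapped. Xrcc4 had 1551 reads in Foxm1 HET library 1 and at most 3 in any other library.

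The Fanconi anemia proteins unhook crosslinks between DNA strands, with a core complex (among others Fanca, Fancc, Fancg, Fancl and Fancm) that attaches ubiquitin to FANCD2 and FANCI. Fancl (gene 67030, chromosome 11, 26387084 to 26471876, plus strand), the ubiquitin ligase of the core, had 0 reads in each WT library and 167, 19 and 34 reads in Foxm1 HET libraries 1 to 3. Its 220 reads in Foxm1 HET libraries, set against a floor of 3 reads over the WT libraries, put it at least 72-fold higher, a bound that covers counting error only. The fitted log2 fold change of 9.06 (SE 3.83) depends on the default prior count of the edgeR fit, not on the prior count of 2 used for log2 CPM. After adjustment over all genes Fancl was not called (unadjusted p = 0.018, adjusted p = 0.601, exact permutation p = 0.1, two-sided, n = 3 and 3). Vrk2, which overlaps 21.7% of the exon bases of Fancl on the opposite strand, had 0, 7 and 0 reads in WT against 33, 43 and 1 in Foxm1 HET libraries. Because the use of strand in counting is not given in the sources used here, reads of Fancl and Vrk2 in the shared stretch cannot be told apart.

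Fancg, a scaffold of the core complex, had 25, 0 and 0 reads in WT libraries 1 to 3 and 264, 11 and 160 reads in Foxm1 HET libraries 1 to 3. The genotypes did not overlap after TMM scaling, with log2 CPM of 0.28 at most in WT and 0.83 at least in Foxm1 HET libraries (log2 fold change 3.44, SE 3.14, adjusted p = 0.993). With library-size scaling they overlapped. WT library 1 was the one WT library with reads. Fancd2, the central substrate of the pathway, had 19, 10 and 32770 reads in WT against 259, 2580 and 10 reads in Foxm1 HET libraries. WT library 3 held most of its reads, and the highest and lowest CPM values were 3930-fold apart (log2 fold change -2.34, SE 1.58, adjusted p = 0.951). The sign rests on that library, since without it the log2 fold change was 7.67. Fanci, the partner of FANCD2, had 968, 0 and 32 reads in WT against 519, 0 and 64 in Foxm1 HET libraries. Fancm, which anchors the core on DNA, had 2035, 101 and 1 reads and 93, 1 and 966 reads. Fancc reached 391 reads in WT library 3 and 486 in Foxm1 HET library 3 and at most 8 in any other library, and Fanca, which was not tested, reached 46 reads in WT library 3 and 881 in Foxm1 HET library 1. Of the 6 tested in this group, 2 had fitted values above 0 and 4 below.

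The RecQ helicases BLM and WRN unwind DNA structures that arise in recombination and at stalled forks. Wrn (gene 22427, chromosome 8, 33234373 to 33385527, minus strand) had the highest median level of all members, 56.3 TPM. It had 1180, 3019 and 427 reads in WT libraries 1 to 3 and 5170, 11977 and 4476 reads in Foxm1 HET libraries 1 to 3, or 20.1, 47.7 and 6.24 TPM against 66.6, 283 and 64.9 TPM. On reads and on TPM all Foxm1 HET values lay above all WT values, whereas after TMM scaling 1 of the Foxm1 HET libraries (log2 CPM 6.74) lay below WT library 2 (7.06). The difference was not called (log2 fold change 3.29, SE 1.66, unadjusted p = 0.0478, adjusted p = 0.81, exact permutation p = 0.2, two-sided, n = 3 and 3), and the log2 fold change was 0.82 without Foxm1 HET library 2. Blm had 1013, 2 and 4 reads in WT against 1109, 2 and 222 in Foxm1 HET libraries, with the genotypes overlapping.

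**Figure D4:**
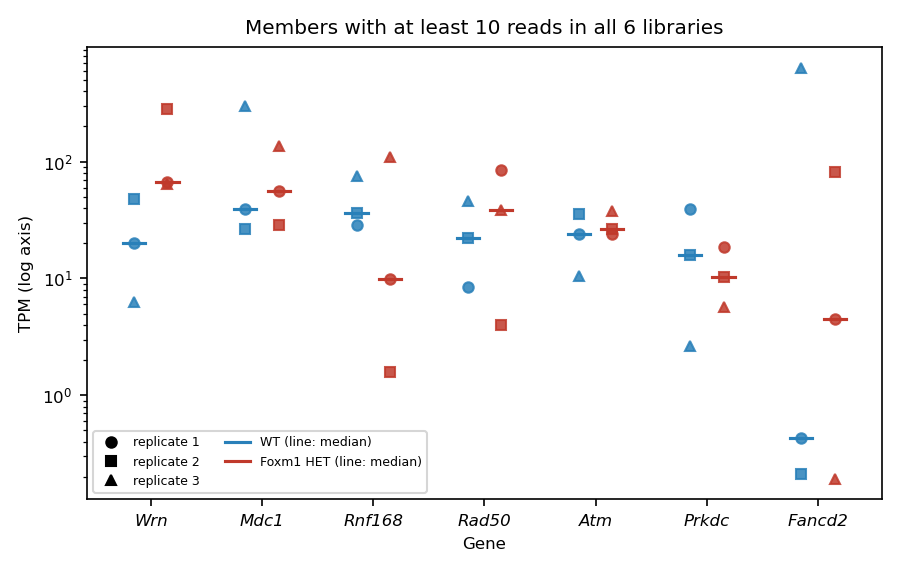
TPM (log axis) of the 7 members with at least 10 reads in all 6 libraries, 1 point per library, WT in blue and Foxm1 HET in red, with lines at the genotype medians. Wrn is the one gene whose Foxm1 HET points (64.9 to 283 TPM) all lie above its WT points (6.24 to 47.7 TPM), and the Fancd2 points run from 0.194 to 639 TPM.

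By mean TPM over the 6 libraries, the order of the highest members was Fancd2 (121), Mdc1 (97.4), Rad51c (87.2), Wrn (81.4), Rnf168 (43.6) and Rad50 (34.1). By median TPM it was Wrn (56.3), Mdc1 (47.6), Rnf168 (32.5), Rad50 (30.1), Atm (25.2), Trp53bp1 (22.6) and Xrcc5 (22.0). Fancd2 and Rad51c stood high by the mean but had medians of 2.44 and 0.205 TPM, since 1 library each held most of their reads. For each of these genes the highest and lowest libraries lay further apart than neighbours in either order. Of the 32 members tested, 22 had more than 50% of their summed CPM, here scaled by TMM, in a single library, as did 61.5% of all genes tested, and the median share of the highest library was 63.2% for members and 55.7% for all genes. On this scale the share passed 90% for 2 members, Rad51c (99.9%) and Atrip (97.1%), and for 7.07% of all genes. With CPM scaled by the library total alone it passed 90% for 5 of the members tested, the others being Rad51d, Nbn and Xrcc6.

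**Figure D5:**
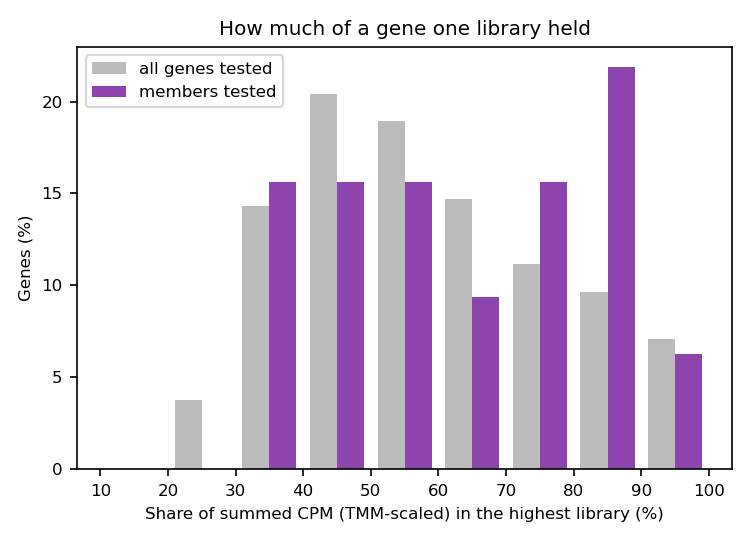
Distribution of the share of a gene's summed CPM (TMM-scaled) held by its highest library (in bins of 10 percentage points), for the 32 members tested (purple) and all 8195 genes tested (grey), as percent of genes. The medians are 63.2% for members and 55.7% for all genes.

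Of 53 other genes of repair and checkpoint control, 32 were tested, with 16 fitted values above 0 and 16 below and a median log2 fold change of 0.08. None had an adjusted p under 0.05 in edgeR, limma-voom or DESeq2, which gave no adjusted p for Hus1 and Rif1, and 3 of the 32 (9.38%, against 6.03% of all genes tested) had an unadjusted p under 0.05, all higher in Foxm1 HET libraries. Hus1, a subunit of the clamp that activates ATR, had 109, 3 and 145 reads in WT libraries 1 to 3 and 1339, 9505 and 848 reads in Foxm1 HET libraries 1 to 3. All Foxm1 HET values lay above all WT values (log2 fold change 6.75, SE 2.07, adjusted p = 0.144), and the log2 fold change was 2.62 without Foxm1 HET library 2. Rif1, which acts with 53BP1 to protect ends from resection, had 67, 2823 and 982 reads in WT against 1477, 14438 and 1853 in Foxm1 HET libraries. The genotypes overlapped (log2 fold change 3.61, SE 1.67, adjusted p = 0.745), and without Foxm1 HET library 2 the log2 fold change was -0.56.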

How the data were processed

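LT-HSC RNA of 3 WT and 3 Foxm1 HET mice was sequenced as single reads and aligned with STAR 2.7.2b to GRCm38 (mm10), per the study's methods and the submitters' processing notes. The counting program, the use of strand and the handling of reads that map to several places are not given in the sources used here, and the labels and the study's methods name different library kits. The authors deposited raw read counts for 27179 genes with gene lengths, and a normalized table on a log2 scale (12179 genes, 37 of the members). Libraries were grouped by the genotype label. Symbols were matched to 25562 gene identifiers through the normalized table and RefSeq. TPM was computed from counts and deposited lengths.

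Genotypes were compared on the counts by edgeR 4.0.16, run in R 4.3.3 (default filter on low counts, TMM scaling, quasi-likelihood test, Benjamini-Hochberg adjustment over 8195 genes, log2 CPM with a prior count of 2). The biological coefficient of variation was 1.66. A called gene had an adjusted p under 0.05. The SE was taken as the fitted log2 value over the root of F. The scripts were tested on simulated counts, with a pass mark only at a spread far below that of these data. That test does not show how they perform at the spread found here. PCR duplicates cannot be told apart, so bounds cover counting error only. Alternatives were RLE or library-size scaling, no filter, a replicate block, each library left out, DESeq2 1.42.0, limma-voom (limma 3.58.1) and limma on the normalized table. Gene sequences shared by other transcripts were counted as 50-base stretches of GENCODE M21.

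The members and lists were chosen with earlier results of these data known. Genes given in full were those with an unadjusted p under 0.05, with non-overlapping genotypes, measured by RT-PCR in the study, among the 6 highest mean TPM values or with the smallest p of their role group, and of the other list those with an unadjusted p under 0.05. Of these, 1 gene is not reported here but is included in the counts, and 1 LT-HSC marker is left out.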

Additional observations from a re-analysis of the deposited data

How the results depend on the processing

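The call of 1 member (Rad51c) was also made with RLE scaling and with no filter. It was 0 members with library-size scaling, DESeq2, limma-voom and the normalized table (3, 5, 0 and 0 at an unadjusted p under 0.05, against 3.78%, 10.1%, 3.31% and 4.73% of all genes), and 0 to 1 as each library was left out. DESeq2 gave no adjusted p for 10 members, Rad51c among them. Over all genes, 27 calls became 10 with RLE, 7 with library-size scaling, 194 with DESeq2, 4 with limma-voom and 0 with the normalized table (576 at an unadjusted p under 0.05), and 0 to 29 as libraries were left out. The median log2 fold change of members, -0.45, was 0.38 with the replicate block, ran from -0.81 to 2.26 as libraries were left out and was 2.26 without WT library 1. The median of all genes was -0.26, -0.13 with RLE, 0.10 with library-size scaling and 0.24 with no filter. Members whose genotypes did not overlap numbered 3, 4 with RLE (Atr lower; 8.83% of all genes) and with library-size scaling (7.97%), 5 with no filter (6.6%) and 8 of 37 in the normalized table (21.6% against 9.64%, with Brca2, Mre11a and Atr lower), with Fancl and Dclre1c in every one of these sets. Left-out libraries gave log2 fold changes of -1.29 to 10.25 for Nbn, -1.83 to 8.58 for Atrip, -2.00 to 0.95 for Mdc1, -7.51 to 7.67 for Fancd2, -0.97 to 1.02 for Rad50, -0.26 to 0.78 for Atm and -0.56 to 4.57 for Rif1. Signs also turned for Mdc1 in the normalized table (0.25), for Rad50 with library-size scaling (0.70), limma-voom (0.49) and the normalized table (0.83), and for Atm with limma-voom (-0.064). The causes were not tested. Members at few reads are not well measured at this depth.

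Same-numbered libraries had deviations from their genotype means correlated at 0.02, -0.03 and -0.07, and differently numbered libraries at -0.03 to 0.06. All of these lie near 0 at this spread between libraries, so they cannot decide whether the replicate numbers mark pairs. With the replicate block 0 members and 0 genes were called (0 members and 108 genes at an unadjusted p under 0.05), and the log2 fold change of Fancd2 was 2.92.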

Other observations

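Of the 32 other repair and checkpoint genes tested, 5 (15.6%) had genotypes that did not overlap, 3 higher and 2 lower in Foxm1 HET libraries, against 8.68% of all genes tested. The 3 given here were named after their values were seen. Cdc25a, the phosphatase that CHEK1 restrains to hold the cell cycle, had 2550, 1434 and 1331 reads in WT libraries 1 to 3 and 372, 1 and 508 reads in Foxm1 HET libraries 1 to 3. Dna2, a nuclease of long-range end resection, had 709, 4714 and 324 reads in WT against 29, 3 and 286 in Foxm1 HET libraries. Usp1, which removes ubiquitin from FANCD2, had 504, 1 and 269 reads in WT against 1482, 978 and 955 in Foxm1 HET libraries. None of these passed the test after adjustment over all genes.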
